A study of Rattus norvegicus with 6 samples.

Results

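The genes described here are 7 rat genes of the plasminogen activator system and the serpin family, taken by symbol from a table of read counts that holds 37209 gene symbols: Plau, Plaur, Plat, Serpine2, Serpinb2, Serpinf1 and Serpinh1. All 7 symbols were found. RNA was sequenced from cultures of primary wild-type (WT) mesenchymal stem cells taken from rat femur marrow, the stromal progenitors of bone, cartilage and fat cells. One group of 3 libraries came from cells given 3% cigarette smoke extract (CSE), a solution in which cigarette smoke has been trapped, for 6 h. The control group of 3 libraries came from cells kept for the same 6 h in medium without serum. These control cells had thus lost serum before RNA was taken. The medium used to dilute the extract is not stated, so differences due to extract and to medium cannot be told apart. The cells were primary cultures rather than a clonal line, and whether the libraries of 1 group stem from different rats or dishes is not stated in the labels. P-values here therefore cover the variation among these 6 libraries, and this may be technical.

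Plasminogen activators are serine proteases that cut the inactive plasminogen into plasmin, which dissolves fibrin, degrades matrix proteins and activates other proteases and growth factors. Urokinase, the product of Plau, works mostly at the cell surface, where it is held by the urokinase receptor, the product of Plaur, while tissue plasminogen activator, the product of Plat, works mostly on fibrin. Serpins are a family of proteins that mostly trap and inactivate serine proteases, and some, such as the products of Serpinf1 and Serpinh1, inhibit no protease and act as a secreted factor or a chaperone. In the bone marrow stroma this system takes part in matrix turnover, cell migration and the release of stored growth factors.

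Library totals lay between 15958621 and 22589327 counts. Levels are given as counts per 1000000 counts of the TMM-scaled library (CPM), and a change is a log2 fold change, positive where CSE is higher, ± its SE. Adjusted p-values come from the quasi-likelihood test of edgeR over all 13390 tested genes, with a threshold of 0.05. CPM values are not divided by transcript length, so levels are compared between groups and not between genes. CSE and control libraries separated on the first principal component, which held 88.6% of the variance, and no library of a group lay with the other group. Of 10 mesenchymal stromal markers, among them Thy1, Eng, Cd44 and Pdgfrb, all were detected, with 3 higher, 5 lower and 2 without a call. Of the 3 higher, Vcam1 passed the filter on low counts through the CSE libraries only. Cd44 was at 1.09 ± 0.05, whereas Pdgfra (−0.97 ± 0.06), Prrx1 (−0.95 ± 0.05), Nt5e (−0.90 ± 0.17) and Pdgfrb (−0.87 ± 0.05) were lower. Of 8 endothelial markers 3 were tested and 2 were lower, Tek (−0.87 ± 0.16) and Esam, which had 24 counts with CSE and 59 in the control and passed the filter through the control libraries only. The endothelial list summed to between 7.45 and 9.41 CPM with CSE and between 12.1 and 13.1 CPM in the control, and Emcn was listed at 0. Of 12 macrophage and monocyte markers 11 were detected as well, and Cd163 was listed at 0. Plau and Plaur are also expressed by macrophages. The summed level of the macrophage list lay between 1811 and 1877 CPM with CSE and between 1667 and 1712 CPM in the control, most of it from Lyz2 (1414 ± 24.8 and 1175 ± 19.3 CPM, SD, n = 3), and 3 of its 11 tested genes were higher, 4 lower and 4 without a call. Among the 4 lower, Cd14 fell from 45.2 ± 3.97 to 16.5 ± 1.14 CPM (SD, n = 3), a change of −1.45 ± 0.08. Cx3cr1 fell from 31.4 ± 1.46 to 1.097 ± 0.200 CPM (SD, n = 3), a change of −4.82 ± 0.13. Ptprc, the leukocyte marker CD45, averaged 49.3 CPM with CSE and 61.9 CPM in the control. The rest of this list, named outside the rule, changed little or rose. Csf1r was lower (−0.25 ± 0.05), and Tyrobp (0.28 ± 0.07) and Cd68 (0.14 ± 0.06) were higher beside Lyz2. Emr1 (0.0004 ± 0.06), Fcer1g (−0.08 ± 0.06), C1qa (−0.11 ± 0.16) and Itgam (−0.12 ± 0.06) had no call. Beside these marker counts, 36.3% of all tested genes were called higher and 37.5% lower. In bulk RNA, fewer cells of a type and less RNA per cell cannot be told apart, and the part of these cells in the results below was not tested.

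The 250 bases before the transcript start are shown for 3 of the 7 genes, Plau, Plaur and Serpinh1. They were read from the RefSeq promoter table of the rat build GRCr8, in which 6 of the 7 genes had an entry and Plat had none. Plau is at chr15:3511988-3512237 on the minus strand, Plaur at chr1:89181113-89181362 on the plus strand and Serpinh1 at chr1:163062977-163063226 on the minus strand. Capitals mark matches to the GC box GGGCGG or its reverse complement CCGCCC in Plau, to the AP-1 motif TGANTCA in Plaur, and to the heat shock element of 3 units in Serpinh1, in which TTCNNGAA overlaps GAANNTTC by the shared GAA.
Plau: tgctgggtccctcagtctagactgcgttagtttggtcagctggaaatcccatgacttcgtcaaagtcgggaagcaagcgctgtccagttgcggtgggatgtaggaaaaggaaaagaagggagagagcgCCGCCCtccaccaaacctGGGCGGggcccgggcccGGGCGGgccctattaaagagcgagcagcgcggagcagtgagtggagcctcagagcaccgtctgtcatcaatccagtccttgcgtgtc
Plaur: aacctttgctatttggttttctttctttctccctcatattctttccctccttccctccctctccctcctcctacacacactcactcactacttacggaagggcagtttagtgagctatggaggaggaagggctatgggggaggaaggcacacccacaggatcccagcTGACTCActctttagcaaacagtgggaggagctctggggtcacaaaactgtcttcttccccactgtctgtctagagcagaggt
Serpinh1: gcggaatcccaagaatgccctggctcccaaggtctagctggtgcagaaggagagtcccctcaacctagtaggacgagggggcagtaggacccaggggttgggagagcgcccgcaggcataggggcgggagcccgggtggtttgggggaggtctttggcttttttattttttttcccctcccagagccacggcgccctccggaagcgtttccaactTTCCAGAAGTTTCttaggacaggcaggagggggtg
Both strands were searched for every motif. Plaur held 1 AP-1 match, TGACTCA, from position −83 to position −77, where −1 is the last base before the start. Of 33469 promoter windows of the same length 6.34% held this motif. Serpinh1 held the heat shock element of 3 units from position −35 to position −23, and 0.663% of windows held one. The 3 GC boxes of Plau matched a motif found in 30.5% of windows, and its window held no AP-1 match. GC boxes also occurred in Serpine2 and in Serpinh1, where the match from −129 to −124 is left in lower case. Serpinb2 also held an AP-1 match, TGATTCA, from position −189 to position −183. No window of the 6 genes held the antioxidant response element TGACNNNGC, which 10.1% of windows held, or the TATA box TATAAA. The xenobiotic response element core GCGTG, present in 25.9% of windows, occurred once each in Plau and Serpinf1. A match describes letters and shows neither binding nor its absence.

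With CSE the activator genes and the receptor gene differed from the control in opposite directions. The urokinase receptor gene Plaur rose 8.85-fold, whereas the urokinase gene Plau fell to 0.358 of the control level and the tissue activator gene Plat to 0.709. Among the serpins, Serpinf1 and Serpinh1 rose by less than Plaur, Serpine2 did not pass and Serpinb2 was nearly absent. Of the 7 genes 6 passed the filter on low counts, and of these 3 rose, 2 fell and 1 did not pass. Across all tested genes 73.9% were called, 36.3% higher and 37.5% lower, so the number of calls among the 6 was near that background. Their median log2 fold change was 0.21, against −0.02 over all tested genes. In 5 of the 6 the groups did not overlap, against 75.8% of all tested genes.

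**Figure D1:**
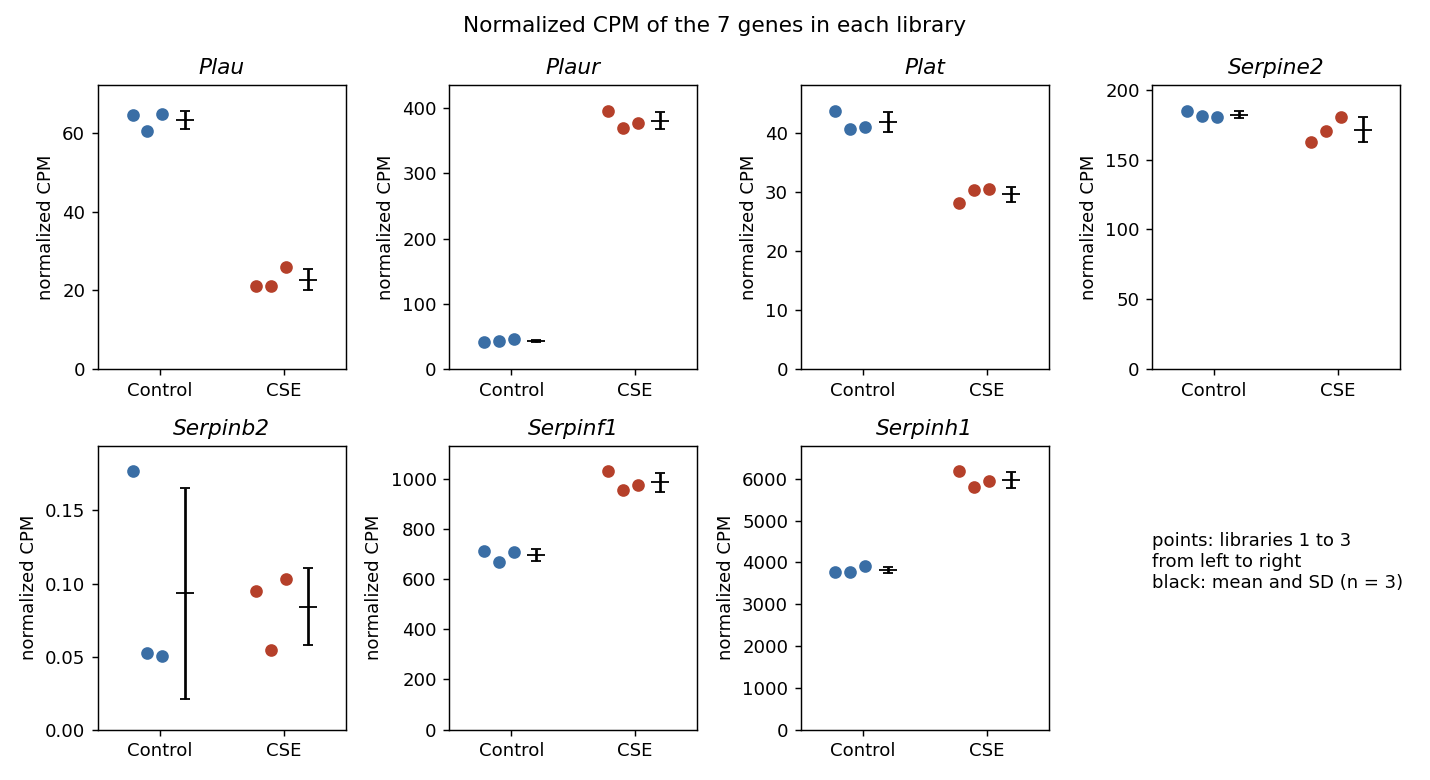
Normalized CPM (vertical axes, each starting at 0) of the 7 genes in the control (blue) and CSE (red) libraries, with points for single libraries and black marks for the mean and SD of 3. Plaur, Serpinf1 and Serpinh1 are higher in every CSE library, Plau and Plat are lower in every one, Serpine2 overlaps between groups, and Serpinb2 stays below 0.18 CPM.

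The receptor gene came first in size. Plaur, which encodes the membrane-anchored protein that binds urokinase, stood at 396, 369.7 and 377 CPM in CSE libraries 1, 2 and 3 and at 41.5, 42.3 and 45.4 CPM in the control libraries. Every CSE library was thus far above every control library, with the lowest CSE value 8.15 times the highest control value. Means were 381 ± 13.5 and 43.0 ± 2.06 CPM (SD, n = 3), and the log2 fold change was 3.15 ± 0.05 (edgeR adjusted p = 6.6e-18). Only 199 of 13390 tested genes, Plaur included, had a log2 fold change this high or higher.

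Urokinase itself went the other way. Plau had 21.0, 21.2 and 25.8 CPM with CSE and 64.5, 60.5 and 64.7 CPM in the control, and the groups lay well apart. CSE library 3 was the highest of its group. The coefficient of variation of Plau with CSE, 12%, exceeded the 5.08% that counting error alone gives at the lowest count, 388 in CSE library 2. In the control it was 3.74%. The log2 fold change was −1.48 ± 0.08 (edgeR adjusted p = 1.1e-11), with means of 22.7 ± 2.72 and 63.2 ± 2.37 CPM (SD, n = 3), and −1.58 without CSE library 3. Of the tested genes 7.55% had a log2 fold change this low or lower.

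Plat, the gene of tissue plasminogen activator, fell as well. It stood at 28.1, 30.3 and 30.4 CPM with CSE and at 43.7, 40.5 and 41.0 CPM in the control, again without overlap. CSE minus control was −0.50 ± 0.07 on the log2 scale (edgeR adjusted p = 2.3e-06), with means of 29.6 ± 1.27 and 41.7 ± 1.70 CPM (SD, n = 3). In the RefSeq table the span of Plat overlaps that of Ikbkb, a kinase gene of the NF-kB pathway, and without a stated strand setting reads of the shared stretch cannot be assigned with certainty. Ikbkb itself was at 0.05 ± 0.06 (edgeR adjusted p = 0.489).

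Ratios of read counts within a library do not depend on how libraries are scaled, although they are not ratios of molecules, since transcript lengths differ. Plaur counts were 18.8, 17.5 and 14.6 times the Plau counts in the CSE libraries and 0.642, 0.699 and 0.701 times in the control libraries. The mean ratio was thus 24.9 times as high with CSE, 17.0 ± 2.15 against 0.681 ± 0.033 (SD, n = 3). Plau counts were 0.747, 0.699 and 0.849 times the Plat counts with CSE and 1.48, 1.49 and 1.58 times in the control, so that Plau exceeded Plat in counts in each control library and was below it in each CSE library. The mean ratio of Plau to Plat was 1.98 times as high in the control. For Plau to Serpine2 the mean ratio was 0.347 ± 0.0122 in control libraries and 0.132 ± 0.00967 in CSE libraries (SD, n = 3).

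**Figure D2:**
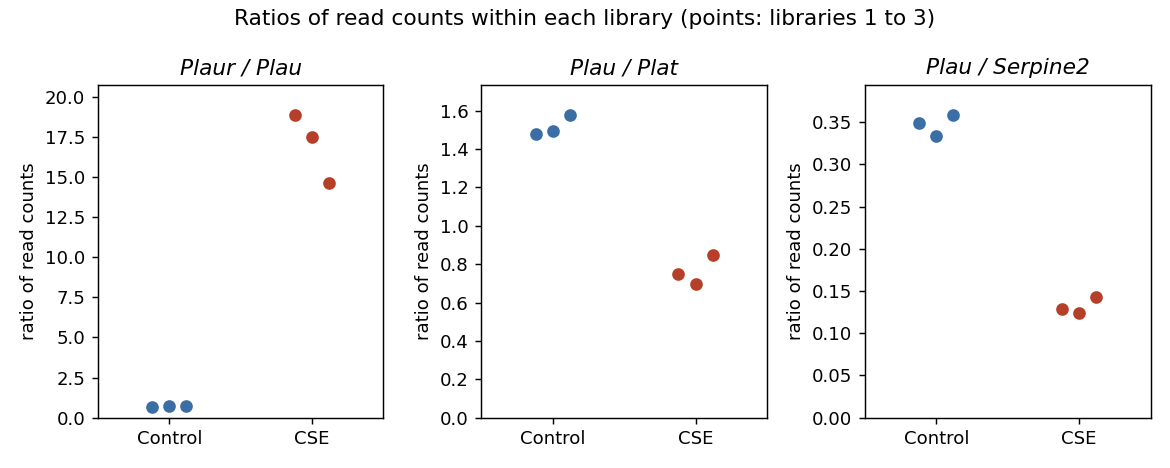
Ratios of read counts (vertical axes, each starting at 0) of Plaur to Plau, Plau to Plat and Plau to Serpine2 within each control (blue) and CSE (red) library. The Plaur to Plau ratio is above 14 in every CSE library and below 0.75 in every control library, and both ratios with Plau as numerator are lower in every CSE library.

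Neither of the inhibitory serpin genes among the 7 was called. Serpine2 encodes protease nexin 1, an extracellular inhibitor of thrombin, urokinase and other serine proteases. It had 163, 171 and 181 CPM with CSE and 185, 181 and 181 CPM in the control. CSE library 3 lay within the control range and the other CSE libraries below it. The log2 fold change, −0.09 ± 0.05, missed the threshold (edgeR adjusted p = 0.111), with means of 171 ± 8.92 and 182 ± 2.44 CPM (SD, n = 3). The call depended on scaling: with total counts alone it was −0.28 (edgeR adjusted p = 6.1e-05) and with upper-quartile factors −0.23 (edgeR adjusted p = 4.6e-04), and without CSE library 3 it was −0.12 (edgeR adjusted p = 0.0493), in a range of adjusted p up to 0.408 over all alternatives.

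Serpinb2 encodes plasminogen activator inhibitor 2, an inhibitor of urokinase that is found mostly inside cells. It had 2, 1 and 2 counts in the CSE libraries and 3, 1 and 1 counts in the control libraries, 10 counts in all. A floor of 3 counts corresponded to between 0.142 and 0.177 CPM, and each library was at or below its own. Serpinb2 did not pass the filter on low counts, no fold is given for it, and a difference between groups was not detectable at this depth. Floors cover counting error only.

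The serpins without a known protease target both rose. Serpinf1 encodes pigment epithelium-derived factor, a secreted protein of the bone matrix and an inhibitor of vessel growth. It stood at 1029, 954 and 974 CPM with CSE and at 713, 669.6 and 707 CPM in the control, with every CSE library higher. Its log2 fold change was 0.50 ± 0.04 (edgeR adjusted p = 1.8e-08), with means of 986 ± 38.8 and 696 ± 23.3 CPM (SD, n = 3), or 0.31 under total counts alone (edgeR adjusted p = 3.2e-06).

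Serpinh1, also known as HSP47, encodes the collagen chaperone of the endoplasmic reticulum and is a known target of heat shock factor. CSE libraries 1, 2 and 3 had 6173, 5798 and 5941 CPM and the control libraries 3775, 3782 and 3913 CPM, so the groups did not overlap. The log2 fold change was 0.64 ± 0.04 (edgeR adjusted p = 1.4e-10), with means of 5971 ± 189 and 3823 ± 77.7 CPM (SD, n = 3). Its window holds the heat shock element printed above. Serpinf1 and Serpinh1 thus changed 1.42-fold and 1.56-fold, and 24.6% and 19.1% of tested genes had log2 fold changes as high or higher.

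Among the other genes of plasminogen activation, 7 of the 13 tested were higher and 6 lower, with a median log2 fold change of 0.22, or 0.03 under total counts alone and −0.02 with a filter of 10 CPM, and 5 of the 18 listed genes did not pass the filter. The share called is set against 73.9% of all tested genes. Serpinf2, which encodes the plasmin inhibitor alpha-2-antiplasmin, rose from 0.741 ± 0.161 to 7.72 ± 0.595 CPM (SD, n = 3), or by 3.38 ± 0.21 on the log2 scale (edgeR adjusted p = 1.4e-10). It is the neighbour of Serpinf1 on rat chromosome 10 in the RefSeq table, with no overlap of their spans. Every CSE library had more than every control library, and the level was low even with CSE.

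In the same list, Anxa2, whose product holds plasminogen and tissue activator at the cell surface, rose from 1254 ± 57.6 to 1821 ± 39.3 CPM (SD, n = 3). Eno1, a glycolytic enzyme gene whose product also binds plasminogen at the surface, rose from 688 ± 28.3 to 1129 ± 52.1 CPM (SD, n = 3). The plasminogen gene Plg, named here outside the rule because of its values, had 81 counts in the CSE libraries together and 10 in the control libraries. It passed the filter through the CSE libraries only, so no fold or p is given for it, although it is 1 of the 7 counted as higher. Also named outside the rule were the plasminogen receptor gene Plgrkt (−0.41 ± 0.10) and Mrc2 (−0.56 ± 0.05), both lower. The product of Mrc2 is a collagen receptor that associates with the urokinase receptor. Other lower genes of this list included Thbd (−1.08 ± 0.15), F3 (−0.40 ± 0.06) and Lrp1 (−0.14 ± 0.05, groups overlapping), while 7 of the 13 tested were higher.

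Other serpins were divided, with 3 of 7 tested called higher and 2 called lower, while 2 missed the threshold, and a median log2 fold change of 0.27, or −0.31 over the 2 genes left by the 10 CPM filter. Over all tested genes 36.3% were called higher and 37.5% lower. Of the 19 listed, 8 were at 0 in all libraries and 4 more were under the filter. Serpinb9, whose product inhibits granzyme B, fell from 118 ± 6.29 to 70.3 ± 4.22 CPM (SD, n = 3), and Serpinb8 from 8.87 ± 0.168 to 3.18 ± 0.628 CPM (SD, n = 3). Serpinc1, the antithrombin gene, had 52 counts with CSE and 15 in the control in all, and passed the filter through the CSE libraries only, so no fold or p is given for it, although it is 1 of the 3 counted as higher. Serpinb6 was at 0.24 ± 0.05 (edgeR adjusted p = 1.6e-04), a call that ended under total counts alone (0.05, edgeR adjusted p = 0.353) and upper-quartile factors (0.10, edgeR adjusted p = 0.0557). The Serpinb6 and Serpinb9 genes belong to families of close copies in rodents, and their counts are uncertain where reads could have been split.

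Proteases that plasmin can activate, with their inhibitors and the hepatocyte growth factor gene, had 5 of 10 tested genes higher, 3 lower and 2 without a call (median log2 fold change 0.14), or 1 higher and 4 lower under total counts alone (median −0.05). Mmp14, the membrane-bound collagenase gene, fell from 425 ± 7.37 to 228 ± 3.50 CPM (SD, n = 3), and the collagenase gene Mmp13 from 13.4 ± 3.07 to 7.06 ± 1.46 CPM (SD, n = 3). Hgf, whose product urokinase can activate, fell from 6.13 ± 0.844 to 1.88 ± 0.170 CPM (SD, n = 3). Timp3, a metalloprotease inhibitor gene, rose 1.80-fold. The other genes called higher, named outside the rule, were the proteases Mmp2 (0.13 ± 0.04), Mmp3 (0.27 ± 0.09), Mmp9 (0.31 ± 0.06) and Mmp12 (0.15 ± 0.05). Over all tested genes 36.3% were called higher and 37.5% lower. Timp1 was listed at 0 in all libraries. Whether it was not expressed or was missed in annotation or counting cannot be told from a listed 0.

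In the list of thrombin and protease-activated receptor genes, 3 of the 9 tested genes were higher, 3 lower and 3 without a call (median 0.11, or −0.07 under total counts alone). Of the 3 higher, F2rl1 reached the cutoff of the filter in 3 CSE libraries and 1 control library. Over all tested genes 36.3% were called higher and 37.5% lower. Prss23, a secreted serine protease gene, was at −2.05 ± 0.04, the thrombin receptor gene F2r at −1.60 ± 0.06 and Gas6, a ligand gene of the TAM receptors, at −0.72 ± 0.05. Procr, the protein C receptor gene, was at 1.998 ± 0.096. Of membrane partners and ligands of the urokinase receptor, 2 of the 10 tested were higher, 5 lower and 3 without a call (median −0.14), against 73.9% called and 37.5% called lower among all tested genes. Under total counts alone 1 was higher and 8 lower (median −0.32), and under upper-quartile factors 2 and 7. Cav1, the caveolin gene, was at −0.91 ± 0.04, Egfr at −1.004 ± 0.075 and Pdgfrb at −0.87 ± 0.05, while the integrin gene Itga3 was at 0.65 ± 0.06.

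**Figure D3:**
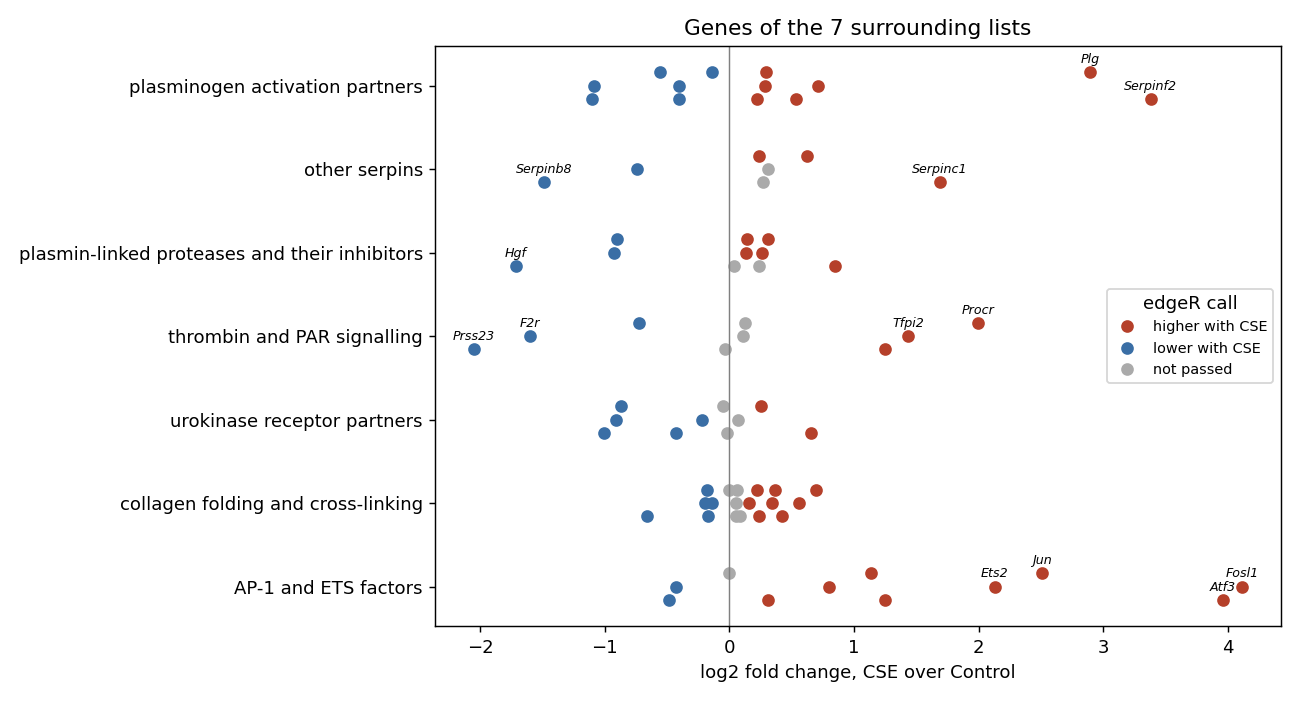
Log2 fold changes of CSE over control (horizontal axis) for the tested genes of the 7 surrounding lists, 1 point per gene, coloured by the edgeR call, with names where the change is at least 1.4 in size. The plasminogen list reaches 3.38 at Serpinf2, and 8 of the 11 AP-1 and ETS factor genes are higher, against 36.3% of all tested genes. The points of Plg and Serpinc1 passed the filter on low counts through the CSE libraries only.

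The collagen folding and cross-linking genes, the setting in which HSP47 works, had 8 of 18 tested genes higher, 5 lower and 5 without a call (median log2 fold change 0.07), or 5 higher and 8 lower under total counts alone (median −0.12). Of the 19 listed, Crtap had 11 counts over all libraries and did not pass the filter. Whether it was hardly expressed or was missed in annotation or counting cannot be told. The prolyl hydroxylase genes P4ha1 and P4hb were at 0.69 ± 0.05 and 0.56 ± 0.04, near Serpinh1, and the lysyl hydroxylase gene Plod1 was at 0.42 ± 0.05. Fkbp14, a prolyl isomerase gene, was at −0.66 ± 0.05. The factors that bind AP-1 and ETS motifs are known to act at the urokinase and urokinase receptor genes. Of them 8 of 11 tested were higher, 2 lower and 1 not past the test, with a median of 1.14. For this list and the collagen list, the shares over all tested genes were 36.3% higher and 37.5% lower. Fosl1 and Jun, partners in the AP-1 dimer, rose 17.3-fold and 5.70-fold, Atf3 15.5-fold and Ets2 4.37-fold. The 2 lower, named outside the rule, were Ets1 (−0.43 ± 0.06) and Fos (−0.49 ± 0.20, groups overlapping). Binding of these factors at Plaur or Plau was not measured.

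The genes with the most similar profile to each member were found by the root mean square difference of centred log2 CPM over the 6 libraries, among 9944 tested genes with a mean of at least 5 CPM. Closest to Plaur were Maff (0.0202) and Klhl21 (0.0756), and closest to Plau were Olfml2b (0.0612) and Itpr1 (0.0622). Plat was followed by Rad21 (0.0268), and Serpine2 by Btf3l4 (0.0171) and Fbxo6 (0.0213). Serpinf1 lay nearest Ppp1r18 (0.0170) and Ano10 (0.0209), and Serpinh1 nearest Eif3b (0.0183) and Cox5a (0.0185). With 6 libraries in 2 groups, such a profile is mostly the size of the difference between the groups.

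**Figure D4:**
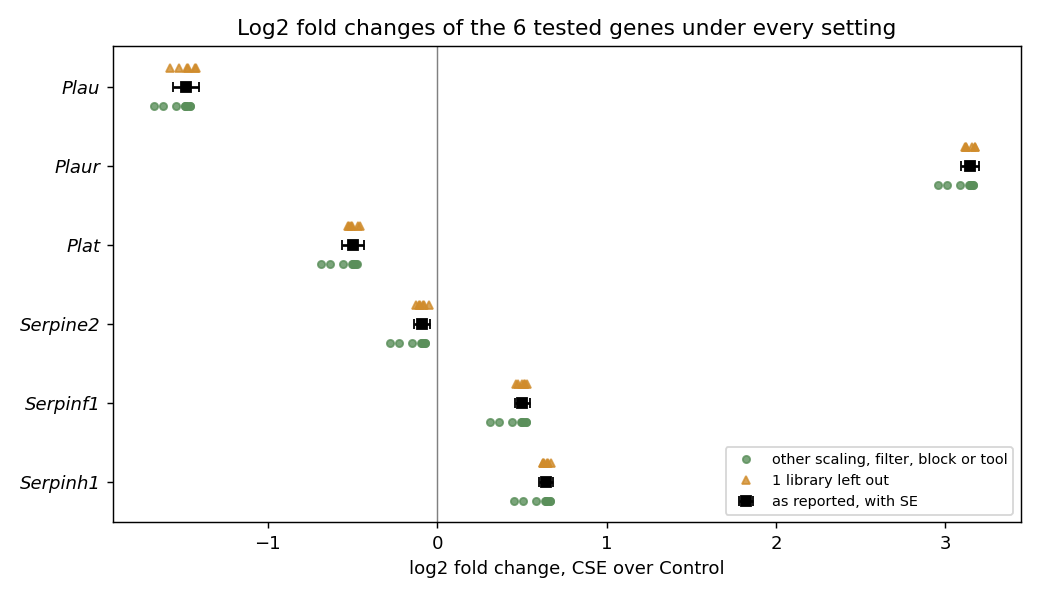
Log2 fold changes of CSE over control (horizontal axis) for the 6 tested genes as reported (black squares with SE), with 1 library left out (orange triangles) and under the other scalings, filters, replicate block or tools (green circles). Each gene stays on its side of 0, and Serpine2 lies nearest to it, between −0.28 and −0.048.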

How the data were processed

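The authors deposited 1 table of raw read counts, whole numbers with no normalization and 1 column per library, which column names tie to sample titles. HISAT2 2.0.4 and the rat build Rnor_6.0 are named, per the submitters' processing notes, with no role. In the sources used here the counter, strand setting and annotation release are not given.

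In R 4.3.3, edgeR 4.0.16 removed low genes (filterByExpr) and scaled libraries by TMM (factors 0.932 to 1.07). The 3 CSE and 3 control libraries were compared by its 2-sided quasi-likelihood F test, and p-values were adjusted by the Benjamini-Hochberg method across the whole table. The SE is the size of a log2 fold change divided by the square root of F. Alternatives used DESeq2 1.42.0, limma-voom 3.58.1, other scalings and filters, a replicate block and each library left out. Chi-square per degree of freedom was 3.24 to 5.74 between libraries of a group, so none agreed within sampling noise. On simulated counts (13201 genes), the test recovered 40% of the genes changed 1.25-fold, 68% at 1.5-fold, 88% at 2-fold and 100% at 4-fold. Only 50 genes were changed at each of these folds, whereas 73.9% of the real tested genes were called. The recovery rates therefore need not hold for the real comparison. The members, gene lists and motifs were chosen with earlier results of these data known. From each list up to 4 called genes with the smallest adjusted p were named, with all members and the 2 nearest profiles of each; 2 genes that this rule takes are not reported here. A list symbol missing from the table was looked up under its RefSeq synonym (GRCr8, used for names, order and promoter sequences).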

Additional observations from a re-analysis of the deposited data

How the results depend on the processing

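Plau, Plaur, Plat, Serpinf1 and Serpinh1 kept their direction and their call under all 15 alternatives. Leaving out 1 library at a time gave log2 fold changes of −1.58 to −1.42 for Plau, 3.12 to 3.17 for Plaur, −0.53 to −0.45 for Plat, 0.47 to 0.53 for Serpinf1 and 0.62 to 0.67 for Serpinh1. Serpine2 kept its sign and passed the test under total counts alone (−0.28), upper-quartile factors (−0.23), a filter of at least 10 CPM in 3 libraries (−0.15), and without CSE library 3 (−0.12). It ranged from −0.12 to −0.048 with 1 library left out, so that 5 or 6 of the 6 genes were called. Total counts alone moved the median of all genes by −0.19 and upper-quartile factors by −0.14. Genes called higher made up 49.2% of calls, and 37.2% under total counts alone. Counts of called genes ranged from 7294 to 10684 over the alternatives.

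Other serpins had 2 called genes under the 10 CPM filter, which left 2 tested. The list of plasmin-linked proteases had 5 called genes under upper-quartile factors, 5 under total counts alone and 4 under the 10 CPM filter, and 5 to 8 with 1 library left out (5 without control library 2); for the scalings and the left-out library the cause was not tested. The median of the thrombin list turned from 0.11 to −0.07 under total counts alone and −0.02 under upper-quartile factors, and that of the collagen list from 0.07 to −0.12 and −0.06. Of 563 values for 38 genes named by rule from the lists, 556 kept direction and call, 7 lost the call and none reversed.

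Replicate numbers are shared between the groups, but same-numbered libraries did not deviate together (correlations of 0.02, −0.03 and 0.00 over tested genes), and no CSE library correlated best with the control library of its own number. With the replicate block 9756 genes were called in place of 9894, and the same number of members, 5. Serpinb2 was under the filter in every alternative with one; with no filter edgeR gave an adjusted p of 0.968. Depth limits Serpinb2 and list genes with few counts, such as Serpinc1 and Plg.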
